A study of Mus musculus with 16 samples.

Results

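The genes described here are 9 G-protein-coupled receptors of lymphocytes, most of which bind lipids: Gpr34, Gpr174, P2ry10, Gpr55, Gpr18, Gpr183, Gpr132, Gpr65 and Gpr171. They were taken by symbol, and are 9 of 22180 genes measured. The probe set for each was chosen by its mean log2 value over all 16 arrays: among those annotated with that gene alone, the one with the highest mean. Only Gpr171 had more than 1 such probe set. The genes themselves were listed with earlier results of these arrays known.

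RNA came from CD8 T cells of the spleens of female mice, labelled C56BL/6 in the sample records and C57BL/6 in the study's design text. All mice had received leukemia cells of Eµ-TCL1 mice, in which a TCL1 transgene driven in B cells by immunoglobulin heavy-chain control elements gives a disease like chronic lymphocytic leukemia (CLL), and were analysed 6 weeks later, so every group described here, naive cells included, comes from a transplanted host, and no mice without leukemia cells were analysed here. Lineage-negative, TCR beta-positive, CD8-positive cells were sorted into 4 subsets with 4 arrays each. Naive cells had high CD127 and low CD44, and memory cells were high for CD127 and for CD44. PD-1int and PD-1hi effector cells had low CD127, CD44 at intermediate to high levels, and intermediate or high PD-1. The sort makes every pair of subsets a comparison, 6 in all. These set memory and effector cells against naive ones, effectors against memory cells, and PD-1hi effectors against PD-1int effectors.

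Receptors of this class sit in the plasma membrane and pass signals through heterotrimeric G proteins, which raise or lower cyclic AMP or activate the small GTPase RhoA, and so steer migration and activation of lymphocytes. Gpr34, Gpr174 and P2ry10 are receptors for lysophosphatidylserine, a phospholipid with a single fatty acid chain. Gpr55 responds to lysophosphatidylinositol. Gpr183, also called EBI2, is a receptor for oxysterols, oxidised forms of cholesterol that position B cells, dendritic cells and T cells within spleen and lymph node, and Gpr18 has been linked to N-arachidonoyl glycine and to a resolvin. Gpr132 responds to lysophosphatidylcholine and oxidised fatty acids. Gpr65 is best known as a sensor of extracellular protons that raises cyclic AMP, and the ligand reported for Gpr171 is a neuropeptide, so the word lipid fits these last members less well.

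The promoters of Gpr174 and Gpr65, whose subset means rose in the same order over the subsets, and of Gpr183, which took another course, are shown because the results turn on these genes. The sequences run from 250 bases before to 50 bases after the annotated start, come from RefSeq in the build GRCm38.p6 and read 5′ to 3′ along the gene. Capitals mark every match, on either strand, to 9 short motifs of T-cell transcription factors.
Gpr174, chrX:107284096-107284395, plus strand: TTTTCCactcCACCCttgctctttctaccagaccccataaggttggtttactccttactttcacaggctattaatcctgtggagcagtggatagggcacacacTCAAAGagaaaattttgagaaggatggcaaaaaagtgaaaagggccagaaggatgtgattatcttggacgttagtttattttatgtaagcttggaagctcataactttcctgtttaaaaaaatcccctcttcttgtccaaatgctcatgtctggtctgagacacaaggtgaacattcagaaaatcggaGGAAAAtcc
Gpr65, chr12:98268385-98268684, plus strand: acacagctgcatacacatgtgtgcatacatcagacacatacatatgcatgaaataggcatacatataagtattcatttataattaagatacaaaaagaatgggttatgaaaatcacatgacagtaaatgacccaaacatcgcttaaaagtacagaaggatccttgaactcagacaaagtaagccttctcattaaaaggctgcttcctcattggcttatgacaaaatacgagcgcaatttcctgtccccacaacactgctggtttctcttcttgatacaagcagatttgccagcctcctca
Gpr183, chr14:121965144-121965443, minus strand: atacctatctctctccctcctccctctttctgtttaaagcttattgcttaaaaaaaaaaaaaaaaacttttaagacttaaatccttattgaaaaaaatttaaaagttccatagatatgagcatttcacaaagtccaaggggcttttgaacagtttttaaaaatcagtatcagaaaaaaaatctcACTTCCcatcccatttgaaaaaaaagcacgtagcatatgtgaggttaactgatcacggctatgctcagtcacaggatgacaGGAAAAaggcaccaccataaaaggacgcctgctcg

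The motifs were CTTTGA for TCF/LEF factors, TGTTTAC for FOXO, TGTGGT for RUNX, TCACAC for T-box factors, TGANTCA for AP-1, GGAAAA for NFAT, GGAAGT for ETS, AAGGTCA for NR4A and CACCC for KLF; those for NFAT and ETS share the letters GGAA. In the Gpr174 promoter there were 2 matches for NFAT, 1 for TCF/LEF and 1 for KLF, and in that of Gpr183 1 for NFAT and 1 for ETS. None of these letters occurred in the Gpr65 window. Sequences were matched for 7 of the 9 genes, with 8 promoters because P2ry10 has 2; Gpr34 and Gpr171 were not matched. The RUNX motif was found in 5 of these 8 promoters against 16.7% of 32544 promoters of the same length, the TCF/LEF motif in 4 against 16%, and the ETS motif in 4 against 23.7%. Counted by gene, the RUNX motif was found in 4 of 7. The share of G and C letters ran from 35.3% (Gpr183) to 57.7% (Gpr132) in the members' promoters. Only Gpr132 lay above the median of 53% over all promoters, and the motif shares were not matched for this. NFAT letters occurred in 2 (23.3% of all promoters), KLF in 2 (57.7%), T-box in 2 (14.3%), AP-1 in 1 (7.79%), NR4A in 1 (4.71%) and FOXO in 0 (3.66%). These matches describe letters and not binding sites.

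Expression is given as the log2 value of the array, which can be set side by side between subsets for 1 gene but not between genes, because probe sets differ in brightness. A level is the mean ± SD of n = 4 arrays. A difference is given ± the standard error of the limma fit to all 16 arrays, and a gene rose, fell or changed where its Benjamini-Hochberg adjusted p over all 22180 genes was under 0.05. Sample titles carry tags AT1 to AT4 that match the replicate numbers and recur in all 4 subsets, and the labels do not say whether a tag stands for a mouse. The p-values therefore rest on the spread among these samples, and that spread may be technical. In RNA from sorted populations, fewer cells that carry a transcript and less of it per cell cannot be told apart. The mean of 7 measured identity genes (Cd3d, Cd3e, Cd3g, Cd8a, Cd8b1, Cd2, Cd5) was between 12.03 and 12.26 on every array. The mean of 9 measured B-cell and CLL-cell markers spanned 6.09 to 6.35 in naive, 6.33 to 6.61 in memory, 6.06 to 6.36 in PD-1int and 5.93 to 6.25 in PD-1hi, and 5 of the 9 lay below the median gene of the array on all 16 arrays. For 10 myeloid and dendritic-cell markers the ranges were 6.06 to 6.20, 6.15 to 6.22, 6.95 to 7.16 and 6.90 to 7.08, with 4 below the median gene on all arrays.

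**Figure D1:**
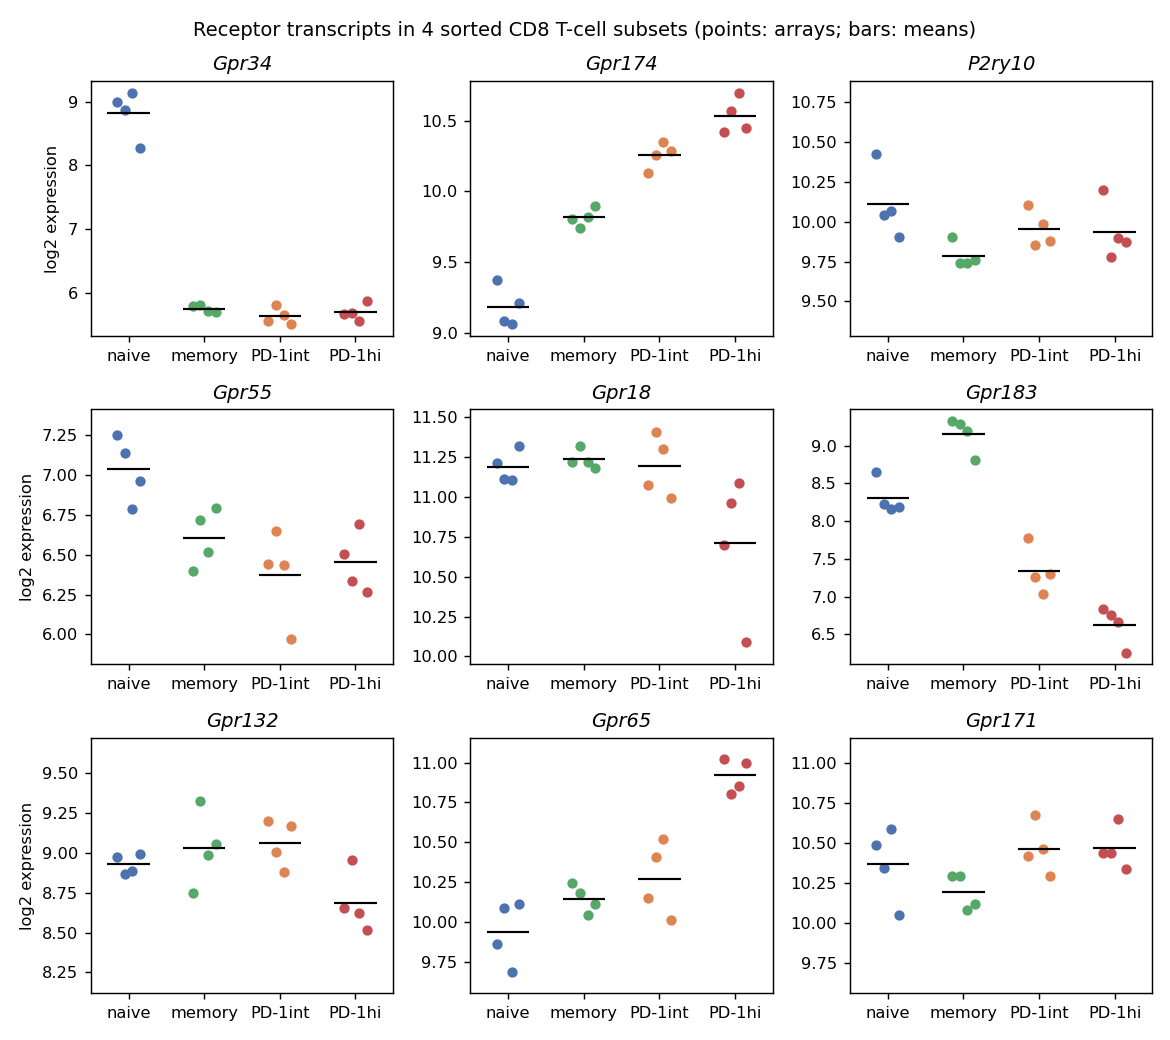
Log2 expression of the 9 receptor genes (vertical axes, a separate range for each gene) on the 16 arrays, by sorted subset. Points are arrays and bars are means of 4 arrays; Gpr34 reads 8.28 or more on naive arrays and 5.87 or less on all others, while Gpr174 climbs from naive to PD-1hi.

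Gpr34 was high in naive cells and low in all 3 other subsets. It read 9.001, 8.87, 9.14 and 8.28 on naive replicates 1 to 4, while memory read 5.78, 5.80, 5.71 and 5.69. The PD-1int arrays read 5.56, 5.80, 5.65 and 5.50, and the PD-1hi arrays 5.66, 5.68, 5.55 and 5.87. Naive arrays were high and did not overlap with any other subset, and the 12 other arrays shared a single narrow band. Against naive, Gpr34 fell by 3.08 ± 0.14 in memory, 8.43-fold (limma adjusted p = 2.66e-11), by 3.20 ± 0.14 in PD-1int, 9.16-fold (limma adjusted p = 5.86e-12), and by 3.13 ± 0.14 in PD-1hi, 8.77-fold (limma adjusted p = 6.34e-12). Among the other 3 subsets no difference passed. PD-1hi minus PD-1int was 0.06 (95% interval -0.23 to 0.35), PD-1int minus memory was -0.12 (-0.41 to 0.17) and PD-1hi minus memory was -0.06 (-0.35 to 0.23). Those arrays lie under the array medians of 6.39 to 6.49, and the values carry no detection call, so whether Gpr34 was detected there was not tested. Myeloid cells also express Gpr34; the mean of the myeloid and dendritic list was 6.14 in naive, and its part in the result was not tested.

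Gpr174, a receptor for the same lysophospholipid that signals through cyclic AMP, ran the opposite way and in steps. Its values were 9.37, 9.08, 9.06 and 9.21 in naive, 9.81, 9.74, 9.82 and 9.90 in memory, 10.13, 10.26, 10.35 and 10.29 in PD-1int, and 10.42, 10.56, 10.70 and 10.45 in PD-1hi. No array of a subset overlapped with an array of another subset, in the order naive, memory, PD-1int, PD-1hi. Gpr174 rose against naive by 0.64 ± 0.09 in memory (limma adjusted p = 5.10e-05), by 1.07 ± 0.09 in PD-1int (limma adjusted p = 2.61e-08) and by 1.35 ± 0.09 in PD-1hi, 2.55-fold (limma adjusted p = 8.39e-10). It was also higher than in memory by 0.44 ± 0.09 in PD-1int (limma adjusted p = 0.00130) and by 0.72 ± 0.09 in PD-1hi (limma adjusted p = 4.79e-06). The last step, PD-1hi minus PD-1int, was 0.28 ± 0.09 and did not pass over all genes (limma adjusted p = 0.0986, 95% interval of the difference 0.10 to 0.46). The mean of 6 natural killer markers was 6.57 in naive and 7.99 in memory cells. It was 7.77 and 7.70 in the PD-1int and PD-1hi subsets, so it was also lowest in naive but highest in memory. Of the 6 markers, 5 rose in memory cells against naive, and 3 rose in PD-1hi cells. From naive to PD-1hi, Eomes went from 8.04 to 11.29, Tbx21 from 7.22 to 9.17 and Cd160 from 6.94 to 8.16. Ncr1 stood at 5.84 and 5.87, Klrb1c at 5.33 and 5.43, and Tyrobp at 6.04 and 6.30 in these 2 subsets. Memory cells had 5.84, 6.66 and 6.95 for the same 3 genes. The part of these markers in the result was not tested.

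P2ry10, the third lysophosphatidylserine receptor, differed little between subsets. Naive arrays read 10.43, 10.04, 10.07 and 9.90, memory 9.90, 9.74, 9.74 and 9.76, PD-1int 10.11, 9.85, 9.99 and 9.88, and PD-1hi 10.20, 9.78, 9.90 and 9.88. The subsets overlapped, with memory lowest, and in each subset the highest array was replicate 1. None of the 6 differences passed; the largest was memory minus naive, -0.32 ± 0.11 (limma adjusted p = 0.0669), which without naive replicate 4 was -0.39 (limma adjusted p = 0.0303) and without PD-1hi replicate 1 had a limma adjusted p of 0.0439. With the replicate number as a block that difference had a limma adjusted p of 0.00973.

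Gpr55, the lysophosphatidylinositol receptor, was higher in naive cells than in effector cells, on a dim probe set. It read 7.25, 7.14, 6.79 and 6.97 in naive, 6.3998, 6.72, 6.51 and 6.79 in memory, 6.44, 6.65, 6.44 and 5.97 in PD-1int, and 6.51, 6.34, 6.70 and 6.27 in PD-1hi. Naive arrays lay above all effector arrays and met memory at 6.79. Gpr55 fell against naive by 0.66 ± 0.14 in PD-1int (limma adjusted p = 0.00169) and by 0.58 ± 0.14 in PD-1hi (limma adjusted p = 0.00364). Memory minus naive was -0.43 ± 0.14 (limma adjusted p = 0.0571) and passed without naive replicate 3 (-0.51, limma adjusted p = 0.0352), PD-1int replicate 2 (limma adjusted p = 0.0474) or PD-1int replicate 4 (limma adjusted p = 0.0258). The memory, PD-1int and PD-1hi subsets, at 6.61 ± 0.18, 6.37 ± 0.29 and 6.45 ± 0.19, did not differ from each other past the test.

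Gpr183, the oxysterol receptor, was highest in memory and lowest in PD-1hi, and was the only member to pass in all 6 comparisons. Naive arrays read 8.65, 8.23, 8.16 and 8.19 and memory arrays 9.33, 9.28, 9.19 and 8.81. PD-1int arrays read 7.78, 7.26, 7.04 and 7.30 and PD-1hi arrays 6.83, 6.76, 6.66 and 6.26. No subset overlapped with another, and the order from high to low was memory, naive, PD-1int, PD-1hi. Gpr183 rose in memory by 0.85 ± 0.16 (limma adjusted p = 0.00162) and fell against naive by 0.96 ± 0.16 in PD-1int (limma adjusted p = 2.09e-04) and by 1.68 ± 0.16 in PD-1hi, 3.20-fold (limma adjusted p = 2.16e-07). Against memory it fell by 1.81 ± 0.16 in PD-1int, 3.499-fold (limma adjusted p = 3.53e-07), and by 2.52 ± 0.16 in PD-1hi, 5.75-fold (limma adjusted p = 2.43e-09). Between the effector subsets it was lower in PD-1hi by -0.72 ± 0.16 (limma adjusted p = 0.0190); without PD-1int replicate 1 this was -0.57 (limma adjusted p = 0.0732) and without PD-1hi replicate 4 it was -0.59 (limma adjusted p = 0.0732). B cells also express Gpr183, and the B-cell marker list was highest in memory and lowest in PD-1hi in its subset means (6.42 and 6.06). Of its 9 genes Cd22 alone rose in memory, from 6.28 ± 0.21 in naive to 9.501 ± 0.10. Cd79b and Bank1 fell with Gpr183 in both effector subsets against naive, while 1 of the 9 rose and 6 did not pass in each. Ms4a1, for example, stood at 5.35 in naive, 5.54 in PD-1int and 5.40 in PD-1hi, and Pax5 at 5.72, 5.76 and 5.83. Cd79b, a chain of the B-cell receptor complex, stood at 7.88 ± 0.10 in naive and 7.73 ± 0.15 in memory cells, and at 7.16 ± 0.09 in the PD-1int and 6.91 ± 0.34 in the PD-1hi subset. Bank1, a B-cell scaffold protein gene, stood at 7.30 ± 0.29, 6.78 ± 0.34, 6.47 ± 0.24 and 6.39 ± 0.33 in the same order. Cd79a, the partner of Cd79b, stood between 6.12 ± 0.29 (memory) and 6.32 ± 0.34 (naive) in all subsets and passed in no comparison. The part of these markers in the result was not tested.

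Gpr18 stood at 11.19 ± 0.10 in naive, 11.24 ± 0.06 in memory and 11.20 ± 0.19 in PD-1int, and was lower in PD-1hi at 10.71 ± 0.44, where the arrays were spread. Its values were 11.22, 11.11, 11.11 and 11.32 in naive, 11.22, 11.32, 11.22 and 11.18 in memory, 11.08, 11.41, 11.31 and 10.99 in PD-1int, and 10.70, 10.96, 11.09 and 10.09 in PD-1hi. PD-1hi replicate 4 was lowest, and PD-1hi arrays lay below all naive and memory arrays but overlapped with PD-1int. Gpr18 fell in PD-1hi by 0.48 ± 0.16 against naive (limma adjusted p = 0.0292) and by 0.53 ± 0.16 against memory (limma adjusted p = 0.0199). Without PD-1hi replicate 4 these differences were -0.27 (limma adjusted p = 0.0887) and -0.32 (limma adjusted p = 0.0507). The first was also lost without naive replicate 1 (-0.47, limma adjusted p = 0.0605), naive replicate 4 (-0.43, 0.0782) or PD-1hi replicate 1 (-0.47, 0.0577), the other without memory replicate 2 (-0.50, 0.0541), and both in fits of only the 8 arrays compared (limma adjusted p = 0.0831 and 0.0582). PD-1hi minus PD-1int was -0.49 ± 0.16 (limma adjusted p = 0.115) and passed without PD-1hi replicate 3 (-0.61, limma adjusted p = 0.0372).

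Gpr65, the proton sensor, was highest in PD-1hi cells. It read 9.86, 10.09, 9.69 and 10.11 in naive, 10.24, 10.18, 10.04 and 10.11 in memory, 10.15, 10.41, 10.52 and 10.01 in PD-1int, and 11.02, 10.81, 10.85 and 11.00 in PD-1hi. PD-1hi arrays stood above all others, while the other subsets overlapped. Gpr65 rose in PD-1hi by 0.98 ± 0.11 against naive, 1.98-fold (limma adjusted p = 1.99e-06), by 0.78 ± 0.11 against memory (limma adjusted p = 4.58e-05) and by 0.65 ± 0.11 against PD-1int, 1.57-fold (limma adjusted p = 0.00299). Memory minus naive, 0.21 ± 0.11, did not pass (limma adjusted p = 0.320), nor did PD-1int minus memory, 0.13 ± 0.11 (limma adjusted p = 0.574). The rise of 0.33 ± 0.11 in PD-1int against naive passed narrowly (limma adjusted p = 0.0417). It did not pass when naive replicate 1 was left out (0.31, adjusted p = 0.0987), nor without naive replicate 3 (0.25, 0.150), memory replicate 2 (adjusted p = 0.0512), memory replicate 4 (0.0509), PD-1int replicate 2 (0.29, 0.122) or PD-1int replicate 3 (0.25, 0.151), all by limma. It was also lost with a replicate block (limma adjusted p = 0.0652), with quantile normalization (0.121) and in a fit of the 8 arrays compared (0.108). Myeloid cells express Gpr65 too. The mean of the myeloid and dendritic list was 6.14 in naive and 6.18 in memory cells, and 7.04 and 6.96 in the PD-1int and PD-1hi subsets. In PD-1hi against naive 3 of its 10 genes rose and 7 did not pass. Those that rose were Cx3cr1 (7.11 in naive, 10.20 in PD-1hi), Cd68 (7.94, 10.99) and Itgam (6.31, 7.34). The others were Lyz2 (5.93, 6.43), Csf1r (6.33, 6.58), Fcgr3 (6.53, 6.70), Flt3 (5.68, 5.83), Clec4a2 (4.24, 4.32), Cd14 (5.04, 5.07) and Siglech (6.33, 6.12). The part of this list in the result was not tested.

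Gpr132, the receptor for lysophosphatidylcholine and oxidised fatty acids, was lower in PD-1hi than in memory. Levels were 8.93 ± 0.06 in naive and 9.03 ± 0.24 in memory cells, 9.06 ± 0.15 in the PD-1int and 8.69 ± 0.19 in the PD-1hi subset. The arrays overlapped in every pair of subsets, and memory replicate 2, at 9.33, was the highest of all arrays. The fall of 0.34 ± 0.12 against memory (limma adjusted p = 0.0415) was lost when any of 6 arrays was left out: memory replicate 2 (-0.24, adjusted p = 0.164), memory replicate 3 (-0.35, 0.0643), memory replicate 4 (-0.33, 0.0853), PD-1hi replicate 1 (-0.33, 0.0850), PD-1hi replicate 3 (-0.32, 0.0960) or PD-1hi replicate 4 (-0.28, 0.130). It was lost in a fit of the 8 arrays compared as well (limma adjusted p = 0.0922). PD-1hi minus PD-1int was -0.38 ± 0.12 (limma adjusted p = 0.0930) and PD-1hi minus naive -0.24 ± 0.12 (limma adjusted p = 0.144), and without PD-1hi replicate 2 both passed (-0.47, limma adjusted p = 0.0368, and -0.33, limma adjusted p = 0.0415).

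Gpr171 passed the test in none of the 6 comparisons. Its brighter probe set stood at 10.37 ± 0.24 in naive and 10.19 ± 0.11 in memory cells, and at 10.46 ± 0.16 in the PD-1int and 10.47 ± 0.13 in the PD-1hi subset. PD-1hi minus memory was 0.27 ± 0.11 (limma adjusted p = 0.103) and PD-1int minus memory 0.27 ± 0.11 (limma adjusted p = 0.136), with arrays of PD-1hi above all those of memory. The dimmer probe set of Gpr171 stood at 6.39 ± 0.53, 6.26 ± 0.17, 6.66 ± 0.06 and 6.83 ± 0.21 in the same order. With the mean of both probe sets in place of the brighter, the difference between PD-1hi and memory was 0.42 ± 0.13 and passed (limma adjusted p = 0.0309).

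**Figure D2:**
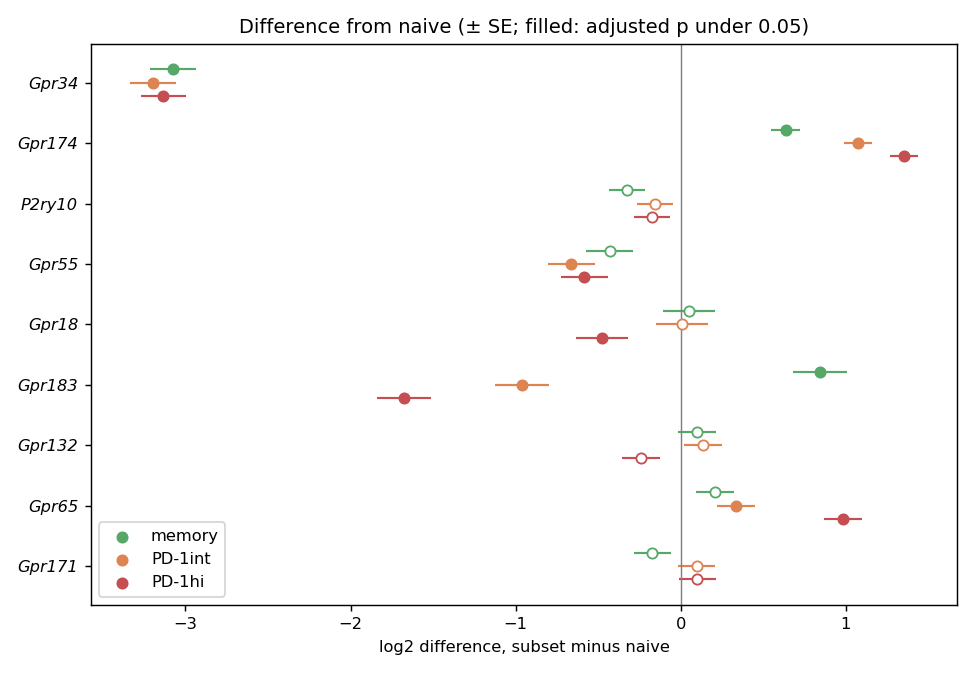
Log2 difference of memory, PD-1int and PD-1hi from naive (horizontal axis, ± standard error of the limma fit) for each receptor gene. Filled points passed an adjusted p of 0.05; Gpr34 falls in all 3 subsets (-3.08, -3.20 and -3.13), Gpr174 rises in steps (0.64, 1.07 and 1.35), and Gpr183 changes sign between memory and the effector subsets.

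Counted over the members, 3 of 9 changed in memory against naive, where 11.7% of all genes changed: 2 were higher (6.7% of all genes) and 1 was lower (5.02%). PD-1int cells differed from naive in 5 members (22.7% of all genes), of which 2 were higher (11.9%) and 3 lower (10.8%). For PD-1hi against naive 6 members changed (27.1%), 2 higher (13.4%) and 4 lower (13.7%). These 3 comparisons share the naive arrays. PD-1hi against PD-1int gave 2 members (3.31%), with Gpr65 higher (1.37%) and Gpr183 lower (1.94%); without PD-1int replicate 1, or without PD-1hi replicate 4, 1 member passed. PD-1int against memory gave 2 members (16.2%), with Gpr174 higher (8.49%) and Gpr183 lower (7.66%). PD-1hi against memory gave 5 members (21.9%), with 2 higher (10.8%) and 3 lower (11.1%), and 3 without memory replicate 2 or without PD-1hi replicate 4. Against naive, the median difference of the 9 members was 0.05 for memory, 0.01 for PD-1int and -0.24 for PD-1hi, beside -0.02, -0.03 and -0.01 for all genes. The arrays of a pair of subsets did not overlap for 3 members in memory against naive (15.7% of all genes). This held for 4 members in PD-1int against naive (23.6%) and 6 in PD-1hi against naive (25.9%). It held for 3 in PD-1hi against PD-1int (8.89%), 2 in PD-1int against memory (20.6%) and 5 in PD-1hi against memory (23.9%). The list had no common direction: in PD-1hi against naive, Gpr174 and Gpr65 made up the rises, and Gpr34, Gpr183, Gpr55 and Gpr18 the falls. Subset means that rose strictly in the order naive, memory, PD-1int, PD-1hi were seen for 2 members, Gpr174 and Gpr65, and for 9.97% of all genes, and none of the members fell strictly in that order, as 9.72% of all genes did.

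Genes beside the members on a chromosome are given to set the members' courses against those of their surroundings. P2ry10, P2ry10b and Gpr174 follow each other on the X chromosome in the RefSeq annotation. P2ry10b, a close relative of P2ry10 whose probes could share signal with it, stood at 7.92 ± 0.24, 7.95 ± 0.16, 7.63 ± 0.17 and 7.69 ± 0.34 in naive, memory, PD-1int and PD-1hi, and passed in none of the 6 comparisons. Itm2a, a transmembrane protein gene on the far side of Gpr174, rose by 2.22 ± 0.13 in memory (limma adjusted p = 6.15e-10), 0.67 ± 0.13 in PD-1int (limma adjusted p = 4.88e-04) and 1.26 ± 0.13 in PD-1hi (limma adjusted p = 2.94e-07), all against naive. Its peak was in memory, where Gpr174 was lower than in both effector subsets. Gpr18 and Gpr183 are next to each other on chromosome 14 within the span of Ubac2, a gene for a protein of the endoplasmic reticulum. Ubac2 fell in memory by 0.37 ± 0.08 (limma adjusted p = 0.00317), where Gpr183 rose, and did not pass in PD-1int (10.96 ± 0.07, naive 10.92 ± 0.05) or in PD-1hi (10.76 ± 0.16, limma adjusted p = 0.164), both against naive. Gpr82, the orphan receptor gene beside Gpr34, read 3.70 ± 0.18 in naive and 3.57 ± 0.16 in PD-1hi and did not pass (limma adjusted p = 0.434). P2ry14, a nucleotide-sugar receptor gene beside Gpr171, read 5.28 ± 0.10 in naive and 5.05 ± 0.09 in PD-1hi (limma adjusted p = 0.0821). Galc, beside Gpr65, encodes the enzyme that breaks down psychosine, a lipid once proposed as a Gpr65 ligand; it read 6.38 ± 0.30 in naive and 6.14 ± 0.04 in PD-1hi (limma adjusted p = 0.187).

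**Figure D3:**
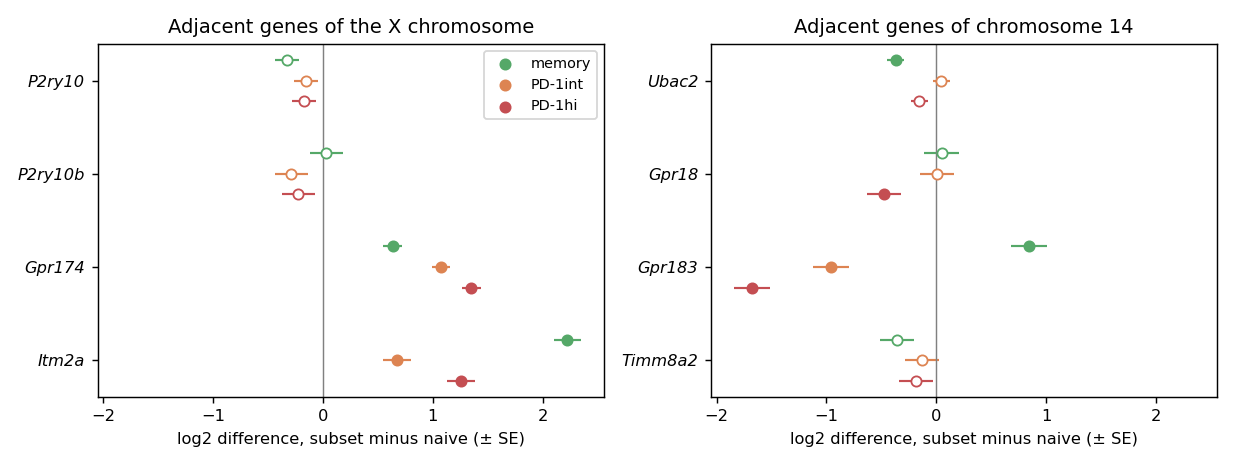
Log2 difference from naive (horizontal axes, ± standard error) for adjacent genes of the X chromosome (left, P2ry10 to Itm2a) and of chromosome 14 (right, Ubac2 to Timm8a2), in RefSeq order. Filled points passed an adjusted p of 0.05; Gpr174 rises where P2ry10 and P2ry10b stay near 0, and Gpr183 moves over a wider range than Gpr18 and Ubac2.

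For the 3 members whose subset means spanned at least 1 log2 unit, the genes with the closest course were sought by Pearson correlation over the 16 arrays among 1530 genes that spanned as much. The arrays of a subset share their sort gate, so these correlations are descriptions and carry no test. Gpr34 was matched by the amino acid transporter gene Slc6a19 (r = 0.991), by Lrrc6 (0.984), a gene of ciliary assembly, and by the glutamate receptor subunit gene Gria3 (0.983). All 3 were high in naive alone: Slc6a19 stood at 9.60 ± 0.20 in naive and at 6.58 ± 0.12 in memory, the next highest subset. Gpr174 was matched by Eea1 (r = 0.986), which encodes an early endosome tether, S100a4 (0.981), a calcium-binding protein, and Sytl2 (0.979), a protein of secretory granule docking. S100a4 climbed from 7.48 ± 0.26 in naive to 12.24 ± 0.18 in PD-1hi. Gpr183 was matched by Ms4a4c (r = 0.984), a membrane-spanning protein of the CD20 family, by Ptpn6 (0.979), which encodes the phosphatase SHP-1, and by Nop2 (0.971), a nucleolar RNA methyltransferase. Ms4a4c took the same order as Gpr183, with 11.90 ± 0.08 in memory, 11.17 ± 0.13 in naive, 9.90 ± 0.32 in PD-1int and 9.05 ± 0.12 in PD-1hi. Once the subset means were removed, r over the 16 deviations with Gpr34 was 0.632 for Slc6a19, 0.36 for Lrrc6 and -0.00363 for Gria3. With Gpr174 it was 0.567 for Eea1, 0.607 for S100a4 and 0.468 for Sytl2, and with Gpr183 it was 0.719 for Ms4a4c, 0.704 for Ptpn6 and 0.534 for Nop2.

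Other receptors for lysophospholipids, eicosanoids, fatty acids, cannabinoids and protons gave 36 measured genes of 42 listed, of which 5 rose and 4 fell in PD-1hi against naive (median difference 0.02, all genes -0.01), where 13.4% of all genes rose and 13.7% fell. In memory against naive 5 rose and 1 fell, where 6.7% of all genes rose and 5.02% fell. S1pr1, the receptor for sphingosine-1-phosphate that lets T cells leave lymphoid organs, fell in PD-1hi by 2.15 ± 0.10 (limma adjusted p = 9.51e-12). The cysteinyl leukotriene receptor Cysltr2 rose there by 2.47 ± 0.17 (limma adjusted p = 1.88e-09), and the prostaglandin E2 receptors Ptger2 and Ptger4, which raise cyclic AMP, by 1.89 ± 0.12 (limma adjusted p = 8.81e-10) and 1.61 ± 0.10 (limma adjusted p = 1.08e-09). The cannabinoid receptor Cnr2 fell in PD-1hi by 1.35 ± 0.14 (limma adjusted p = 3.76e-07) and stood at 8.31 ± 0.37 in naive and 8.18 ± 0.07 in memory. Between the effector subsets 4 of 36 fell and none rose in PD-1hi (1.94% and 1.37% of all genes), led by S1pr1 (-0.90 ± 0.10, limma adjusted p = 2.42e-05) and S1pr5 (-0.87 ± 0.13, limma adjusted p = 9.54e-04). That count was 2 in a fit of the 8 arrays compared, and without PD-1int replicate 1 or 2 or PD-1hi replicate 1 or 4.

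Transcripts for enzymes of the receptors' ligands are given for PD-1hi against naive, where 27.1% of all genes changed. Of the 4 oxysterol enzymes (Ch25h, Cyp7b1, Hsd3b7, Cyp27a1), which make and degrade the ligand of Gpr183, 0 passed limma in PD-1hi against naive, with 1 at an unadjusted p under 0.05. All 4 stood below the array medians in their subset means. Of 9 enzymes of lysophosphatidylserine and lysophosphatidylinositol, 1 rose and 1 fell in PD-1hi against naive: the lysophosphatidylserine lipase gene Abhd12 by 0.27 ± 0.08 (limma adjusted p = 0.0213) and the acyltransferase gene Mboat1 by -0.66 ± 0.16 (limma adjusted p = 0.00353). Abhd12 lost its call without naive replicate 2 (limma adjusted p = 0.0767), PD-1hi replicate 1 (0.0639) or PD-1hi replicate 4 (0.0749), which left 1 of the 9, as did centring on the array median and a fit of the 8 arrays compared. Without naive replicate 4 the count was 4. Among 8 lipoxygenases and N-acyl amide enzymes 1 rose, Alox12 (0.39 ± 0.13, limma adjusted p = 0.0343), whose call was lost without naive replicate 2 (limma adjusted p = 0.127), naive replicate 3 (0.0744) or PD-1hi replicate 1 (0.0886), 2 (0.0630) or 4 (0.0790). The call of Alox12 was also lost with a replicate block (limma adjusted p = 0.0572), and Alox12 is not tested when the 40% dimmest genes are left out. In this list 1 gene fell, Faah, which hydrolyses N-acyl ethanolamines such as anandamide: 10.20 ± 0.12 in naive and 9.20 ± 0.16 in PD-1hi, a difference of -0.99 ± 0.10 (limma adjusted p = 2.16e-07). Faah stood at 9.68 ± 0.16 in memory and 9.38 ± 0.08 in PD-1int.

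G-protein subunit genes rose more often than they fell in PD-1hi cells. Of 13 alpha subunits 5 rose and 2 fell in PD-1hi against naive (median difference 0.21, all genes -0.01; 27.1% of all genes changed), a count of changes that became 4 without naive replicate 3 and in a fit of the 8 arrays compared. Gnai2, the main inhibitory alpha subunit of lymphocytes, rose by 0.61 ± 0.07 (limma adjusted p = 8.77e-07) and Gna15 by 0.77 ± 0.10 (limma adjusted p = 9.86e-06), while Gnaq fell by 0.85 ± 0.18 (limma adjusted p = 0.00136). Of 14 beta and gamma subunits 6 rose and 1 fell (13.4% and 13.7% of all genes, median difference 0.21), among them Gng3 (1.74 ± 0.16, limma adjusted p = 7.47e-08) and Gng2 (0.86), while Gng12 fell (-0.68). Gnb4 rose in PD-1hi by 1.13 ± 0.18 (limma adjusted p = 8.01e-05) and fell in memory by 0.89 ± 0.18 (limma adjusted p = 0.00250). Among 7 measured receptor kinases and arrestins, which end receptor signals, 2 rose and 1 fell in PD-1hi, beside the same shares of all genes: the arrestin gene Arrb1 fell by 1.10 ± 0.10 (limma adjusted p = 1.52e-07), Arrb2 rose by 0.39 ± 0.07 (limma adjusted p = 3.85e-04) and the kinase gene Grk5 rose by 1.09 ± 0.27 (limma adjusted p = 0.00460). The naive arrays of Grk5 were spread (6.72 ± 0.79), and the highest, 7.54, lay above the lowest PD-1hi array, 7.49. Grk5 stood at 8.29 ± 0.22 in PD-1int and 7.81 ± 0.29 in PD-1hi.

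Effectors of cyclic AMP and RhoA changed in both directions, 6 of 27 higher and 6 lower in PD-1hi against naive (median difference -0.04), where 13.4% of all genes were higher and 13.7% lower. The adenylyl cyclase gene Adcy6 fell by 2.40 ± 0.15, 5.28-fold (limma adjusted p = 4.79e-10), from 8.46 ± 0.22 in naive to 6.06 ± 0.11 in PD-1hi. Adcy6 was also low in memory (6.80 ± 0.27) and in PD-1int (6.19 ± 0.28). Arhgef11, which encodes an exchange factor that links G12 and G13 proteins to RhoA, fell by 2.48 ± 0.12, 5.58-fold (limma adjusted p = 1.77e-11), while its relative Arhgef12 fell in memory by 1.19 ± 0.14 (limma adjusted p = 1.20e-05) and stood at 7.87 ± 0.39 in PD-1hi beside 8.06 ± 0.09 in naive (limma adjusted p = 0.394). Pde3b, a phosphodiesterase gene that degrades cyclic AMP, fell by 0.81 ± 0.09 in PD-1hi (limma adjusted p = 1.91e-06), and the kinase subunit gene Prkar1a rose by 0.59 ± 0.08 (limma adjusted p = 2.43e-05). Between PD-1hi and PD-1int limma called 0 of 13 alpha subunits, 0 of 14 beta and gamma subunits, 0 of 7 kinases and arrestins and 0 of 27 effectors, with 2, 2, 1 and 6 of them at an unadjusted p under 0.05, where 3.31% of all genes were called.

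**Figure D4:**
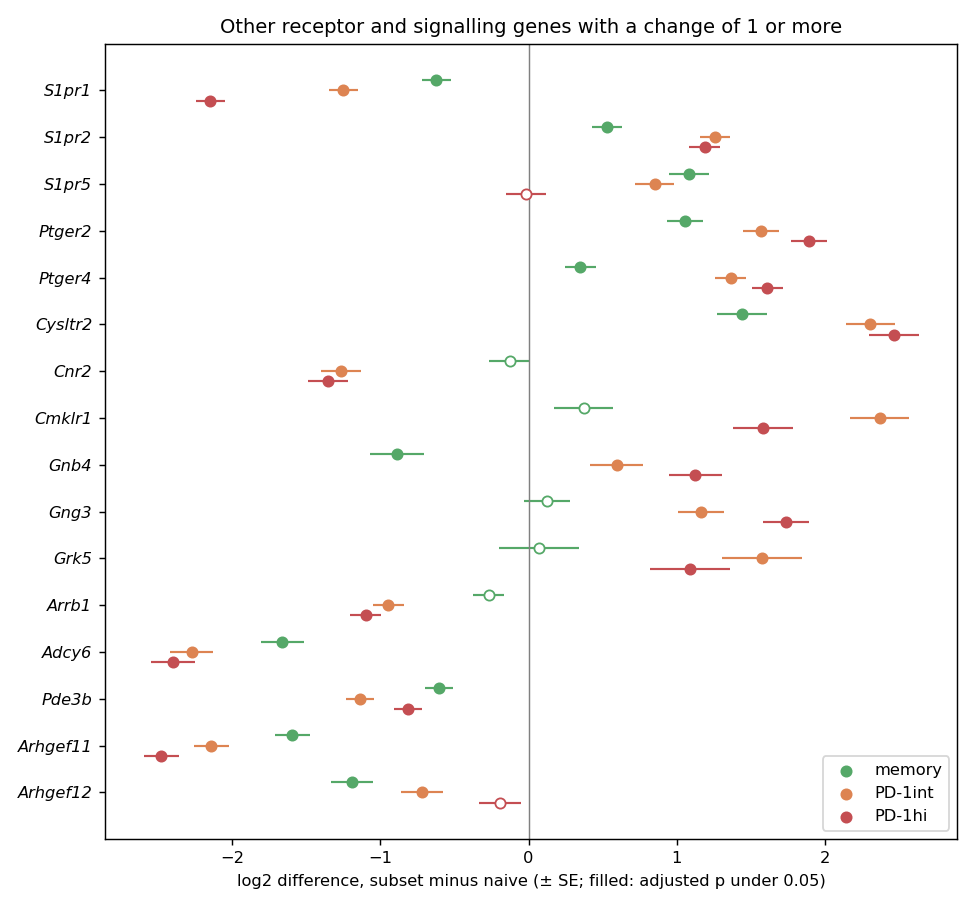
Log2 difference from naive (horizontal axis, ± standard error) of the 16 listed receptor and signalling genes that changed by at least 1 log2 unit in 1 or more of the 3 subsets. Filled points passed an adjusted p of 0.05; S1pr1, Adcy6 and Arhgef11 lie farthest to the left in PD-1hi (-2.15, -2.40 and -2.48) and Cysltr2 farthest to the right (2.47).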

How the data were processed

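RNA of 16 samples, 4 for each sorted CD8 T-cell subset, was measured on Affymetrix Mouse Gene 2.0 ST arrays. The authors deposited log2 values per probe set, made with Affymetrix Power Tools per the submitters' processing notes; its version and the way probes were summarised are not stated in those notes. Of 41345 probe sets, 23521 name 1 gene, 1814 several and 16010 none, and the brightest probe set over all arrays stood for each of 22180 genes. limma 3.58.1 in R 4.3.3 fitted a mean per subset to all arrays (12 residual degrees of freedom), with Benjamini-Hochberg adjustment over all genes. On data simulated for PD-1hi against naive, 59 of 100 genes changed by 0.5 and 97 of 100 changed by 1 were called. The members, gene lists and markers were chosen with earlier results of these data known. Named were all members, their nearest neighbours, the 3 genes most correlated with each member whose subset means span 1 or more, and up to 4 genes of each list and comparison by adjusted p; other genes were named after their values were seen. The number of arrays limits the precision. Alternatives were a replicate block, quantile normalization, median centring, a filter on the 40% dimmest genes, averaging the probe sets of each gene, eBayes with trend and robust settings, fits of only the 8 arrays compared, and leaving out each array.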

Additional observations from a re-analysis of the deposited data

Results flagged for a closer look

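P2ry10 and Gpr183 each had an array apart from the other 3 of its subset. P2ry10 read 9.90424 in memory replicate 1, against 9.74 to 9.76 on the other memory arrays, a gap of 0.888 of the group's whole range. Gpr183 read 8.6502 in naive replicate 1, against 8.16 to 8.23 on the other naive arrays, a gap of 0.845 of the range. Both exceed Dixon's 95% critical value for 4 samples. Of 36 groups of 4 arrays tested, 2 exceeded it, and about 5% do so by chance.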

How the results depend on the processing

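Over the members' differences counted here, 294 values under other settings kept their direction and side of the threshold, 6 lost the call, 8 gained one and 0 reversed. With 1 array left out the counts were 676, 20, 8 and 0. Some small differences that did not pass were not among those counted. Examples are PD-1hi minus PD-1int for Gpr55 (0.08) and memory minus naive for Gpr132 (0.10). Changes of sign in those were not counted. The number of members changed in memory against naive, 3, became 5 with the 40% dimmest genes left out and 5 with quantile normalization, through P2ry10 and Gpr55. In PD-1hi against memory it was 3 in a fit of only the 8 arrays compared. Leaving out 1 array gave 3 to 4 members in memory against naive, 4 to 5 in PD-1int against naive, 5 to 7 in PD-1hi against naive, 1 to 3 in PD-1hi against PD-1int, 2 in PD-1int against memory and 3 to 5 in PD-1hi against memory. Replicate numbers and title tags are shared between subsets. Of 24 same-numbered pairs of arrays, 2 had deviations correlated over 0.1 (-0.0478 to 0.151). Still, for 9 of 16 arrays, their own number had the highest mean correlation with the arrays of other subsets. Each number is carried by 3 of the 12 arrays of other subsets. Whether a number marks a shared mouse is not settled by these values, and the fit without a block was kept. With the replicate block, 4, 4, 6, 2, 2 and 5 members changed in memory, PD-1int and PD-1hi against naive, PD-1hi against PD-1int, and PD-1int and PD-1hi against memory. Gpr34 outside naive cells and the oxysterol enzymes lie near or below the array medians, where the values carry no detection call.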

Other observations

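Replicate 1 was the highest array in all 4 subsets for P2ry10 and for Gpr183, as it was for 93 genes, 0.419% of all genes. The 2 probe sets of Gpr171 had subset means in the same order, memory, naive, PD-1int and PD-1hi.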
